A study of Homo sapiens with 8 samples.

Results

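The genes described here encode the replication clamp PCNA, the proteins that load it and the enzymes that finish Okazaki fragments. They were chosen by name and function, with no threshold on a measured value: PCNA, the clamp loader subunits RFC1, RFC2, RFC3, RFC4 and RFC5, the alternative loader subunits CHTF18 and DSCC1, the flap endonuclease FEN1 and the DNA ligase LIG1. All 10 were found among the 38148 genes of the expression table and all 10 passed the filter on low values.

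PCNA is a ring that slides along DNA and tethers the polymerases that copy it. The RFC complex opens the ring with ATP and closes it around a primer end, and the CHTF18 complex uses the same small RFC subunits with CHTF18 in the place of RFC1. On the lagging strand, where DNA is made in short Okazaki fragments, FEN1 cuts away the displaced flap at each junction and LIG1 seals the remaining nick, both while bound to PCNA. Transcripts of these genes are known to be most abundant in proliferating cells around the time of DNA synthesis.

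The study asked how gene expression differs between cells that stay arrested and cells that reach a late cell cycle stage during acute inhibition of MEK, the kinase that activates ERK. HT29, a BRAF-mutant human colorectal cancer cell line, was fixed in glyoxal, stained for the G2 and mitotic cyclin CCNB1, and flow sorted by that stain before poly(A) RNA sequencing. There were 4 groups of 2 libraries each: untreated CCNB1-negative, untreated CCNB1-positive, selumetinib CCNB1-negative and selumetinib CCNB1-positive cells. The MEK inhibitor selumetinib was given at 1 µM for 24 h, and all groups were fixed, stained and sorted in the same way. The growth medium was RPMI-1640 by the labels, whereas the study's methods name another medium for HT29. Only HT29 was used, and nothing in the labels says that the libraries of a group came from separate cultures, so p-values here measure only the spread between these libraries.

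The sources of the group labels do not match. The titles of all 8 libraries, and with them the medium, give the reverse of the descriptions, both for selumetinib and for the CCNB1 stain. The descriptions match the column names of the expression table and were followed here. Under the titles, the treatment response given below for CCNB1-negative cells would belong to CCNB1-positive cells and point the other way, and vice versa. The difference between fractions would swap between untreated and selumetinib cells and also point the other way, and the difference between the responses would stay as it is. By the descriptions, CCNB1 itself was at 136 and 171 RPM (reads of a gene per 1000000 reads on genes) in untreated CCNB1-negative cells, at 591 and 704 RPM in untreated CCNB1-positive cells, at 11.0 and 6.93 RPM in selumetinib CCNB1-negative cells, and at 309 and 267 RPM in selumetinib CCNB1-positive cells. All 6 listed targets of MEK-ERK signalling (DUSP6, SPRY4, ETV4, ETV5, PHLDA1 and SPRED1) were lower with selumetinib in both fractions by the descriptions, with ETV4 at 70.5 to 77.8 RPM in untreated and 8.03 to 26.4 RPM in selumetinib libraries. By the titles, CCNB1 would be lower in CCNB1-positive than in CCNB1-negative cells of both treatments, and these 6 targets would be higher with the MEK inhibitor.

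The untreated libraries held 19114877 to 23916160 reads on genes and the selumetinib libraries 12696860 to 19976635. The share of reads on MALAT1, a nuclear RNA, was 0.303 to 0.386% in untreated and 2.01 to 4.42% in selumetinib libraries, and that on mitochondrial genes was 4.44 to 7.80% and 11.9 to 14.8%. All 7 epithelial markers passed the filter, and their summed level, most of it from keratins, was 9930 to 11000 RPM in untreated CCNB1-negative, 9980 to 10100 RPM in untreated CCNB1-positive, 4570 to 6510 RPM in selumetinib CCNB1-negative and 6140 to 8250 RPM in selumetinib CCNB1-positive libraries. In CCNB1-negative cells 3 of the 7 were lower with selumetinib, 2 were higher (CDX2 with a log2 difference of 1.06 and VIL1 with 0.73) and 2 did not pass. Of 10 markers of other cell types, LYZ and COL1A1 passed the filter. LYZ made up nearly the whole of their sum, at 343 to 1080 RPM. COL1A1 reached at most 5.36 RPM, while CD3E, ALB, DCN and COL1A2 stayed at 0.283 RPM or lower in every library.

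Promoter sequence of the members was described as planned, and its part in their expression was not tested. RefSeq windows (GRCh38.p14, from 250 bases before to 50 bases after the start) were matched for 9 of the 10 members, with 2 windows for PCNA and 1 for each other member. They were searched on both strands for 4 words of the E2F element (TTTCCCGC, TTTCGCGC, TTTGCCGC and TTTGGCGC) and for 2 words of the CHR element (TTTGAA and TTCGAA), which are found at many S phase and G2 genes. An E2F word stood in a window of 3 of the 9 members, and it was TTTCCCGC or its reverse complement each time. PCNA had it in 1 window, and its other window (chr20:5119909-5120208) held none. Of the 35116 windows of all genes 3.3% held an E2F word, a share counted per window rather than per member. No CHR word was found in the members' windows, and 16.4% of all windows held one. The 3 stretches that held the E2F word are given in the direction of transcription with the word in capitals. No matched word overlapped another.
PCNA, chr20:5126654-5126701, minus strand: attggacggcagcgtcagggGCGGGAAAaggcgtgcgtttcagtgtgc
RFC3, chr13:33818074-33818121, plus strand: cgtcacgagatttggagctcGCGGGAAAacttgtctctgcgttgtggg
LIG1, chr19:48170431-48170478, minus strand: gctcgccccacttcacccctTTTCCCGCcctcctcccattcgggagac
Counted with the start base of the same window as 0, the word spanned positions -59 to -52 in PCNA, -55 to -48 in RFC3 and -114 to -107 in LIG1. With 3 members holding the word, whether it went with the size of the responses described next was not tested. A matched word is a description of the letters only.

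In CCNB1-negative cells all 10 members were lower with selumetinib (limma, adjusted p under 0.05 over the 14219 genes tested). Among all genes tested 35.8% were lower and 38.2% higher. The members' median log2 difference was -2.96, beside 0.05 for all genes tested. DSCC1, PCNA, FEN1 and RFC3 fell 12.2- to 17.5-fold, and DSCC1 and PCNA stood at ranks 24 and 26 of the 14219 genes counted from the most negative difference. In CCNB1-positive cells 8 of the 10 were lower, against 27.3% lower and 38.0% higher among all genes tested, with a median of -0.86 beside 0.17. The members that did not pass there were RFC1 and CHTF18.

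PCNA, the clamp itself (ENSG00000132646, chr20:5114953-5126626, 6 exons), was the most abundant member per length of its transcript. It was at 429 and 512 RPM in untreated CCNB1-negative cells, 202 and 219 RPM in untreated CCNB1-positive cells, 34.7 and 25.8 RPM in selumetinib CCNB1-negative cells, and 65.8 and 69.2 RPM in selumetinib CCNB1-positive cells. The 4 groups did not overlap, and the order of the fractions was opposite in the 2 treatments. PCNA fell 17.3-fold with selumetinib in CCNB1-negative cells (log2 difference -4.11 ± 0.17 SE, adjusted p = 7.2e-10) and 3.35-fold in CCNB1-positive cells (-1.74 ± 0.17 SE, adjusted p = 1.8e-06). By that measure PCNA stood first among the members in every group, at 368 RPM per kb in untreated CCNB1-negative cells and 21.3 in selumetinib CCNB1-negative cells.

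**Figure D1:**
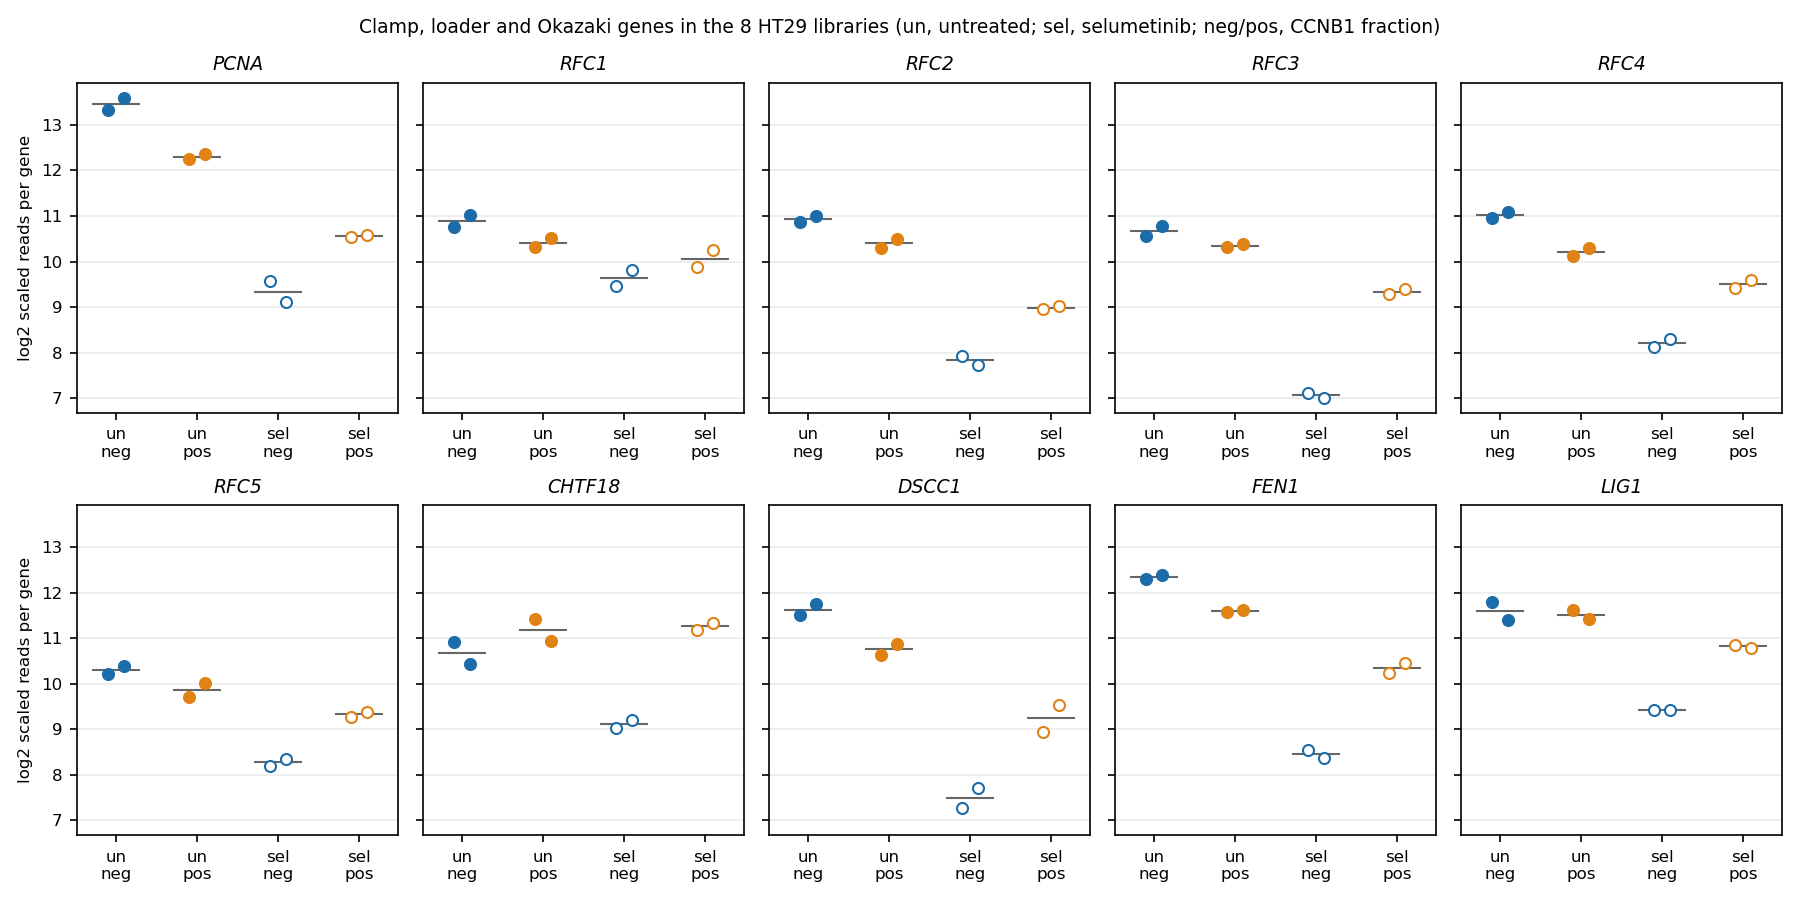
Deposited log2 scaled reads per gene (y axis) of the 10 members in each of the 8 libraries (points), with the group mean as a line, for untreated (filled) and selumetinib (open) CCNB1-negative (blue) and CCNB1-positive (orange) cells. PCNA lies between 13.32 and 13.59 in untreated CCNB1-negative and between 9.11 and 9.57 in selumetinib CCNB1-negative cells. The selumetinib CCNB1-negative libraries are the lowest for every member, narrowly for RFC1 (9.81 beside 9.87), and the share of all genes with this order was not counted.

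RFC1, the large subunit that makes the loader specific for replication (ENSG00000035928, chr4:39287456-39366375), had the smallest response of the members in CCNB1-negative cells. It was at 73.0 and 86.3 RPM in untreated CCNB1-negative, 53.1 and 60.7 RPM in untreated CCNB1-positive, 32.2 and 41.6 RPM in selumetinib CCNB1-negative, and 41.7 and 54.9 RPM in selumetinib CCNB1-positive cells. The libraries of CCNB1-positive cells overlapped between treatments, and those of CCNB1-negative cells did not. RFC1 was 2.39-fold lower in CCNB1-negative cells (log2 difference -1.26 ± 0.18 SE, adjusted p = 2.1e-05), whereas in CCNB1-positive cells the difference was -0.35 (95% interval -0.73 to 0.03, adjusted p = 0.099).

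The small subunits that RFC1 and CHTF18 share responded more than RFC1 in value, RFC3 most of them in CCNB1-negative cells and RFC2 in CCNB1-positive cells. RFC3 (ENSG00000133119, chr13:33818069-33966558) was at 63.7 and 72.3 RPM in untreated CCNB1-negative and 53.2 and 55.3 RPM in untreated CCNB1-positive cells, but at 6.29 and 5.99 RPM in selumetinib CCNB1-negative and 27.7 and 30.1 RPM in selumetinib CCNB1-positive cells. The selumetinib CCNB1-negative libraries rested on 88 and 76 reads. RFC3 thus fell 12.2-fold in CCNB1-negative cells (log2 difference -3.61 ± 0.15 SE, adjusted p = 9.2e-10) and 2.02-fold in CCNB1-positive cells (-1.01 ± 0.15 SE, adjusted p = 6.9e-05).

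RFC2 (ENSG00000049541, chr7:74231499-74254458) fell from 78.5 and 84.9 RPM to 11.1 and 9.92 RPM in CCNB1-negative cells, 8.57-fold, and from 52.7 and 60.0 RPM to 22.0 and 23.4 RPM in CCNB1-positive cells, 2.66-fold (adjusted p = 2.6e-09 and 4.7e-06). RFC4 (ENSG00000163918, chr3:186789880-186807058) fell from 83.5 and 90.6 RPM to 12.7 and 14.5 RPM in CCNB1-negative cells, 7.05-fold, and from 46.5 and 51.9 RPM to 30.5 and 34.8 RPM in CCNB1-positive cells, 1.62-fold (adjusted p = 5.0e-09 and 0.0013). In each of these the treated and untreated libraries of a fraction did not overlap. RFC5 (ENSG00000111445, chr12:118013588-118033130) had the smallest response of the small subunits. It went from 49.9 and 56.0 RPM to 13.4 and 15.2 RPM in CCNB1-negative cells, 4.08-fold lower (adjusted p = 1.2e-07), and from 34.8 and 42.8 RPM to 27.6 and 29.9 RPM in CCNB1-positive cells, 1.44-fold lower (adjusted p = 0.011). The latter call was lost when libraries were scaled to nuclear genes without MALAT1 (log2 difference -0.28, adjusted p = 0.14), without untreated CCNB1-positive replicate 2 (-0.38, adjusted p = 0.15) and without selumetinib CCNB1-positive replicate 1 (-0.48, adjusted p = 0.072).

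Because the complex holds these subunits together, their levels were also set beside each other per length of the canonical transcript. The log2 range between the lowest and the highest small subunit was 1.32 to 1.37 in untreated CCNB1-negative, 0.90 to 1.04 in untreated CCNB1-positive and 0.90 to 0.96 in selumetinib CCNB1-positive libraries, but 1.77 and 2.03 in selumetinib CCNB1-negative libraries. This depended on the length used: per length of all annotated exons together, the range of the group means was 1.18, 1.10, 0.29 and 1.15 for the same groups in that order. RFC4 was the highest of the small subunits in each group by the canonical transcript, but RFC2 was above it by all exons in 3 of the 4 groups. RFC3 was the lowest in selumetinib CCNB1-negative cells by both lengths, at 2.42 RPM per kb, next to 6.16 for RFC5, and the log2 ratio of RFC3 to RFC5 reads was -1.09 and -1.34 there and 0.01 to 0.61 in the other 6 libraries. RFC1 was below the 4 small subunits in the untreated groups and above RFC2, RFC3 and RFC5 in selumetinib CCNB1-negative cells, where RFC1 and RFC5 were close (2.77 ± 0.24 and 2.62 ± 0.11 on the log2 scale, SD, n = 2).

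**Figure D2:**
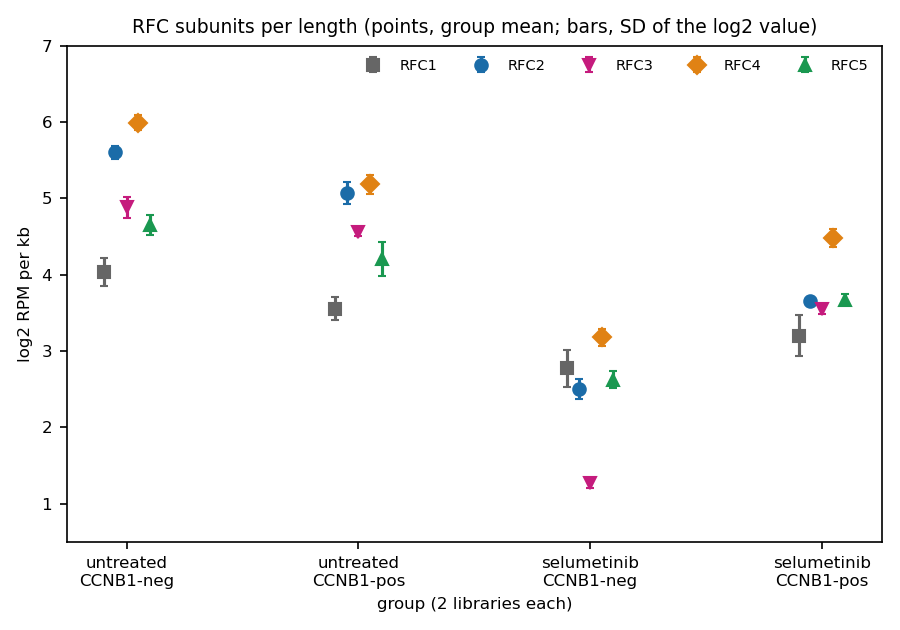
Group means of the log2 RPM per kb of canonical transcript (y axis) for the 5 RFC subunits in the 4 groups (x axis), with bars for the SD of 2 libraries. The subunits lie between 4.03 and 5.99 in untreated CCNB1-negative cells and between 1.27 (RFC3) and 3.18 (RFC4) in selumetinib CCNB1-negative cells.

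The partners of the alternative loader moved apart. CHTF18, its large subunit (ENSG00000127586, chr16:788046-800737), was at 80.8 and 57.8 RPM in untreated CCNB1-negative, 114 and 81.2 RPM in untreated CCNB1-positive, 23.7 and 27.5 RPM in selumetinib CCNB1-negative, and 104 and 117 RPM in selumetinib CCNB1-positive cells. The CCNB1-positive libraries overlapped between treatments and the CCNB1-negative ones did not. CHTF18 was 2.95-fold lower with selumetinib in CCNB1-negative cells (log2 difference -1.56 ± 0.19 SE, adjusted p = 5.3e-06), and the difference in CCNB1-positive cells was 0.09 (95% interval -0.32 to 0.50, adjusted p = 0.70).

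DSCC1, which joins CHTF18 in that loader (ENSG00000136982, chr8:119833976-119855894), had the largest response of the members in CCNB1-negative cells. It fell from 122 and 144 RPM to 7.08 and 9.77 RPM there, 17.5-fold (log2 difference -4.13 ± 0.21 SE, adjusted p = 2.7e-09), and from 66.9 and 77.8 RPM to 21.9 and 33.2 RPM in CCNB1-positive cells, 2.87-fold (-1.52 ± 0.21 SE, adjusted p = 2.8e-05). Within libraries, the log2 ratio of CHTF18 to DSCC1 reads was -0.59 and -1.32 in untreated CCNB1-negative, 0.78 and 0.06 in untreated CCNB1-positive, 1.74 and 1.49 in selumetinib CCNB1-negative and 2.24 and 1.82 in selumetinib CCNB1-positive cells. The ratio was higher in each selumetinib library than in any untreated one. CHTF8, the remaining subunit of that loader, was lower in CCNB1-negative cells (log2 difference -0.72, adjusted p = 0.0016) and had a value of -0.33 in CCNB1-positive cells (adjusted p = 0.11).

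FEN1, the flap endonuclease (ENSG00000168496, chr11:61792911-61797238), was second to PCNA per length in the untreated groups. It was at 213 and 221 RPM in untreated CCNB1-negative, 127 and 130 RPM in untreated CCNB1-positive, 16.9 and 15.5 RPM in selumetinib CCNB1-negative, and 53.4 and 63.6 RPM in selumetinib CCNB1-positive cells, with no overlap between any groups. FEN1 fell 14.7-fold in CCNB1-negative cells (log2 difference -3.88 ± 0.14 SE, adjusted p = 7.2e-10) and 2.37-fold in CCNB1-positive cells (-1.24 ± 0.14 SE, adjusted p = 7.3e-06). FEN1 lies almost wholly (4259 bases) within the annotated span of the desaturase gene FADS2 on the same strand. FADS2 held 16 to 51 reads more than FEN1 in each library, at 225 to 4709 reads in all, so reads in FEN1 were counted for both genes and few reads of FADS2 lay outside it.

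LIG1, the ligase (ENSG00000105486, chr19:48115445-48170603), fell less than FEN1 in value. It was at 150 and 113 RPM in untreated CCNB1-negative, 131 and 114 RPM in untreated CCNB1-positive, 31.2 and 31.7 RPM in selumetinib CCNB1-negative, and 82.4 and 79.3 RPM in selumetinib CCNB1-positive cells. The untreated fractions overlapped, and every selumetinib library was below every untreated one. LIG1 was 4.55-fold lower in CCNB1-negative cells (log2 difference -2.19 ± 0.16 SE, adjusted p = 4.4e-08) and 1.63-fold lower in CCNB1-positive cells (-0.70 ± 0.16 SE, adjusted p = 0.0014). The log2 ratio of FEN1 to LIG1 reads was 0.50 and 0.97 in untreated CCNB1-negative and -0.05 and 0.19 in untreated CCNB1-positive cells, and it was -0.88 and -1.03 in selumetinib CCNB1-negative and -0.63 and -0.32 in selumetinib CCNB1-positive cells.

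**Figure D3:**
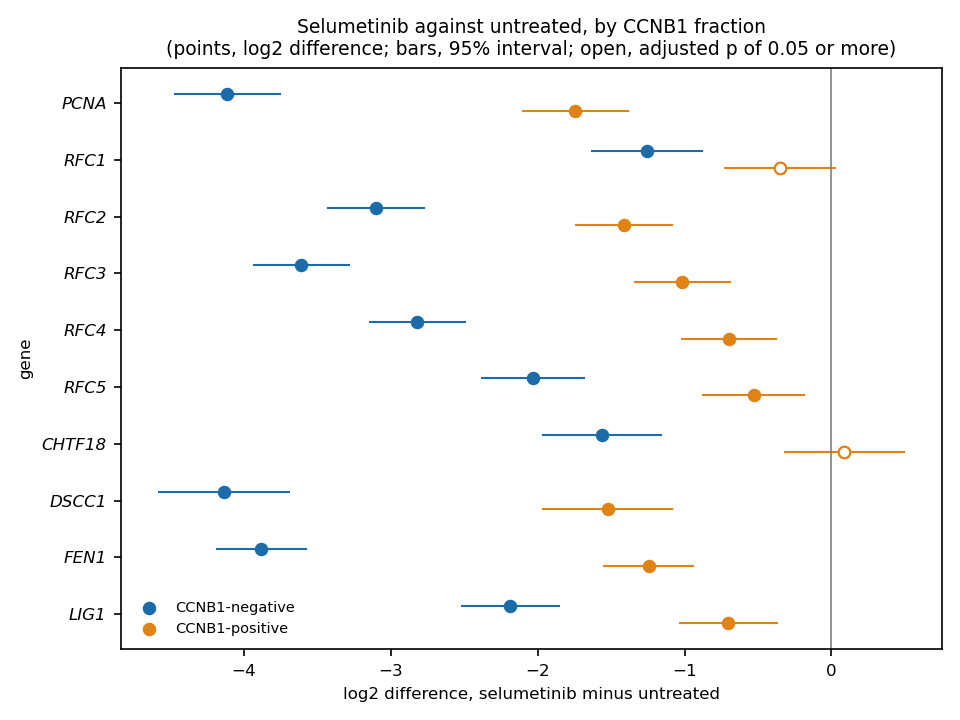
Log2 difference between selumetinib and untreated cells (x axis) for each member (y axis) in CCNB1-negative (blue) and CCNB1-positive (orange) cells, with 95% intervals, open where the adjusted p was 0.05 or more. All CCNB1-negative values lie between -4.13 and -1.26, and the CCNB1-positive values lie between -1.74 and 0.09.

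The response was then compared between the fractions. The difference of the responses was counted as positive where the log2 difference with selumetinib was higher in CCNB1-positive than in CCNB1-negative cells. It passed as positive for 9 of the 10 members, against 4.99% of all genes tested that passed in that direction and 0.345% in the other. The members' median was 1.90, beside 0.11 for all genes tested. It was 2.64 for FEN1 (adjusted p = 4.2e-06), 2.61 for DSCC1, 2.59 for RFC3, 2.37 for PCNA, 2.12 for RFC4 and 1.69 for RFC2. CHTF18, RFC5 and LIG1 followed with 1.65, 1.50 and 1.48 (adjusted p = 0.0015, 9e-04 and 6.8e-04). RFC1 was at 0.91 (95% interval 0.37 to 1.45, adjusted p = 0.054). It passed with a filter at 10 RPM (adjusted p = 0.048), with a pseudocount of 1 RPM (0.046) and without untreated CCNB1-negative replicate 1 (0.047), selumetinib CCNB1-negative replicate 2 (0.041) or selumetinib CCNB1-positive replicate 1 (0.038), and in fits that paired libraries by number. For each member the selumetinib CCNB1-negative libraries lay below the other 6, for RFC1 by a narrow gap (9.81 beside 9.87 on the log2 scale). How many of all genes tested had this order was not counted, so it is no result about the members. The difference of the responses also takes in the difference between the untreated fractions given below, which for PCNA was -1.15 beside 1.22 in selumetinib cells.

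The fractions were also compared within each treatment, using the same libraries as the responses, so these values are no separate evidence. With selumetinib, 9 of the 10 members were higher in CCNB1-positive than in CCNB1-negative cells, against 13.8% higher and 7.87% lower among all genes tested, with a median of 1.35 beside 0.02. The value was 2.27 for RFC3 (4.84-fold), 2.15 for CHTF18 (4.44-fold), 1.89 for FEN1, 1.74 for DSCC1, 1.40 for LIG1, 1.30 for RFC4, 1.22 for PCNA, 1.15 for RFC2 and 1.05 for RFC5. RFC1 was at 0.43 (95% interval 0.05 to 0.81, adjusted p = 0.10).

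In untreated cells the difference between the fractions was mostly on the other side. There 4 of the 10 were lower in CCNB1-positive cells, against 1.51% lower and 1.36% higher among all genes tested, with a median of -0.51 beside -0.06. PCNA was 2.22-fold lower (log2 difference -1.15, adjusted p = 0.0011), RFC4 1.76-fold (-0.82, adjusted p = 0.0078), FEN1 1.68-fold (-0.75, adjusted p = 0.0093) and DSCC1 1.83-fold (-0.87, adjusted p = 0.037). The values of RFC2 (-0.53), RFC1 (-0.48), RFC5 (-0.45), RFC3 (-0.32) and LIG1 (-0.08) did not pass, nor did that of CHTF18 (0.50, adjusted p = 0.23). The count rested on few libraries. It was 1 without untreated CCNB1-negative replicate 2, 1 without untreated CCNB1-positive replicate 1 and 2 without untreated CCNB1-positive replicate 2, and PCNA passed each time. DSCC1 lost its call without any 1 of the 4 untreated libraries (adjusted p = 0.064 to 0.25) and with quantile normalization (adjusted p = 0.14). Fits that paired libraries by number gave another count, stated with the dependence on processing.

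**Figure D4:**
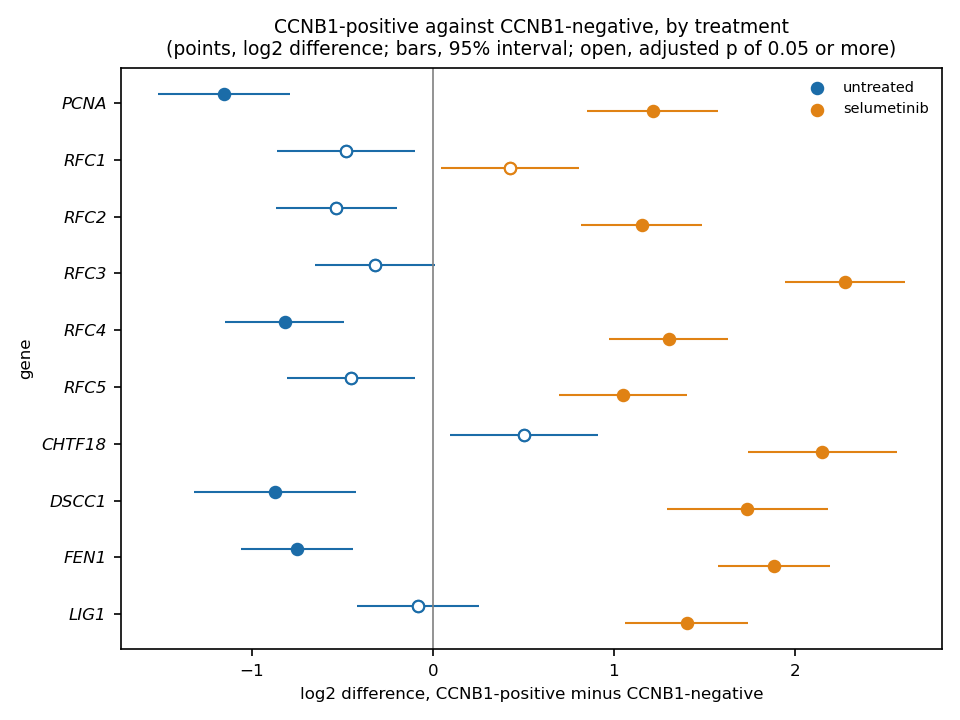
Log2 difference between CCNB1-positive and CCNB1-negative cells (x axis) for each member (y axis) in untreated (blue) and selumetinib (orange) cells, with 95% intervals, open where the adjusted p was 0.05 or more. The untreated values lie between -1.15 and 0.50 and the selumetinib values between 0.43 and 2.27.

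Many markers of the cell cycle moved too. All 11 listed stage markers were lower with selumetinib in CCNB1-negative cells and 10 of them in CCNB1-positive cells, against 35.8% and 27.3% of all genes tested. Between the untreated fractions, the G1/S genes CCNE1, CCNE2, CDC6 and MCM2 were lower in CCNB1-positive cells (log2 differences -2.43, -3.37, -1.51 and -0.90), on the side of PCNA, while CCNA2, CCNB1, CCNB2, CDK1, PLK1 and MKI67 were higher by 1.38 to 2.67. With selumetinib the CCNB1-positive fraction had more of 9 of these markers, CCNB1 by 5.08 and CDK1 by 4.74 on the log2 scale, while CCNE1 (-0.26, adjusted p = 0.45) and CCNE2 (0.32, adjusted p = 0.43) did not pass. Of all genes tested, 1.51% were lower and 1.36% higher in the untreated CCNB1-positive fraction, and 13.8% were higher in the selumetinib one. In these bulk libraries a smaller share of cells in S phase and less transcript in each cell cannot be told apart, and the part of cell cycle stage in the differences was not tested. MALAT1 and mitochondrial reads also moved with treatment, as given above. With libraries scaled to nuclear genes without MALAT1, 10 members were still lower in CCNB1-negative cells (median -2.64) and 7 in CCNB1-positive cells (median -0.61). Among the 14219 genes tested, 3854 were lower in CCNB1-negative cells (median 0.36) and 2614 in CCNB1-positive cells (median 0.42) with that scaling.

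Pathway genes that are no members were taken from 5 lists with 47 genes, of which 45 were tested. In CCNB1-negative cells 33 were lower and 9 higher with selumetinib, with a median of -1.44 (35.8% and 38.2% of all genes tested, median 0.05). Among these, 22 fell and 8 rose in CCNB1-positive cells, with a median of -0.37 (27.3% and 38.0% of all genes tested, median 0.17). The difference of the responses passed for 21, all positive, against 4.99% of all genes tested. The same shares are the background for each list that follows.

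Among other loaders and the RAD9-HUS1-RAD1 checkpoint clamp, 4 of 7 tested genes were lower and 2 higher in CCNB1-negative cells. ATAD5, which unloads PCNA from DNA, fell by 2.25 (adjusted p = 1.4e-07) there and stood at 0.01 (adjusted p = 0.96) in CCNB1-positive cells, and the responses differed by 2.26 (adjusted p = 6.1e-05). RAD9A, a subunit of the checkpoint clamp, rose in both fractions, by 1.32 (adjusted p = 3.4e-06) and 1.15 (adjusted p = 2.5e-05), while its partners HUS1 and RAD1 fell in both, with log2 differences of -1.92 and -1.91 in CCNB1-negative cells.

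Of 12 other genes of Okazaki maturation and polymerase delta, 11 were lower and 1 higher in CCNB1-negative cells, and 7 lower and 1 higher in CCNB1-positive cells. RNASEH2A, the catalytic subunit of the RNase that removes ribonucleotides, was at -2.63 and -0.64, and PARP1, which senses unligated nicks, at -2.51 and -1.64. POLD4, the smallest polymerase delta subunit, was the gene that rose, by 0.56 (adjusted p = 0.0038) and 0.36 (adjusted p = 0.049), while POLD1, POLD2 and POLD3 fell in CCNB1-negative cells (-1.94, -2.28 and -1.33).

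The paralogs of FEN1 and LIG1 were not uniform. EXO1, a nuclease of the same family as FEN1, was at -3.69 and -1.03, near FEN1, whereas ERCC5, the nuclease of excision repair, rose by 0.68 and 0.73. LIG3 was at -1.05 and -1.13, with a difference of responses of -0.08 (adjusted p = 0.85) beside 1.48 for LIG1. LIG4, the ligase of end joining, did not pass in either fraction (0.10 and 0.22).

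Of 10 tested genes that attach ubiquitin or SUMO to PCNA, remove them or act on the modified clamp, 6 were lower and 4 higher in CCNB1-negative cells, the latter near the share of all genes tested. USP1, which removes ubiquitin from PCNA, was at -2.46 and -0.75 and the ligase RAD18 at -1.72 and -0.60, and ZRANB3 rose by 0.75 and 0.69. PARPBP had the largest difference between the fractions in selumetinib cells, with 3.10 (adjusted p = 2.9e-08).

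Of 12 proteins that bind PCNA, 10 were lower and 1 higher in CCNB1-negative cells. MSH6, a mismatch recognition protein, was at -3.20 and -1.12, and it was lower in CCNB1-positive than in CCNB1-negative untreated cells (-1.97, adjusted p = 7e-06). CHAF1A, the large subunit of the histone chaperone CAF-1, was at -3.04 and -0.80. MSH3, the alternative partner in mismatch recognition, rose by 1.18 and 0.91. CDKN1A, the inhibitor that competes for PCNA, rose by 1.66 in CCNB1-positive cells (adjusted p = 0.009) and was at 0.37 in CCNB1-negative cells (adjusted p = 0.51), and the difference of its responses was 1.29 (adjusted p = 0.32). Its level was low and its replicates lay far apart. In CCNB1-positive cells it was at 2.8 and 1.32 RPM untreated and at 10.3 and 4.11 RPM with selumetinib.

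**Figure D5:**
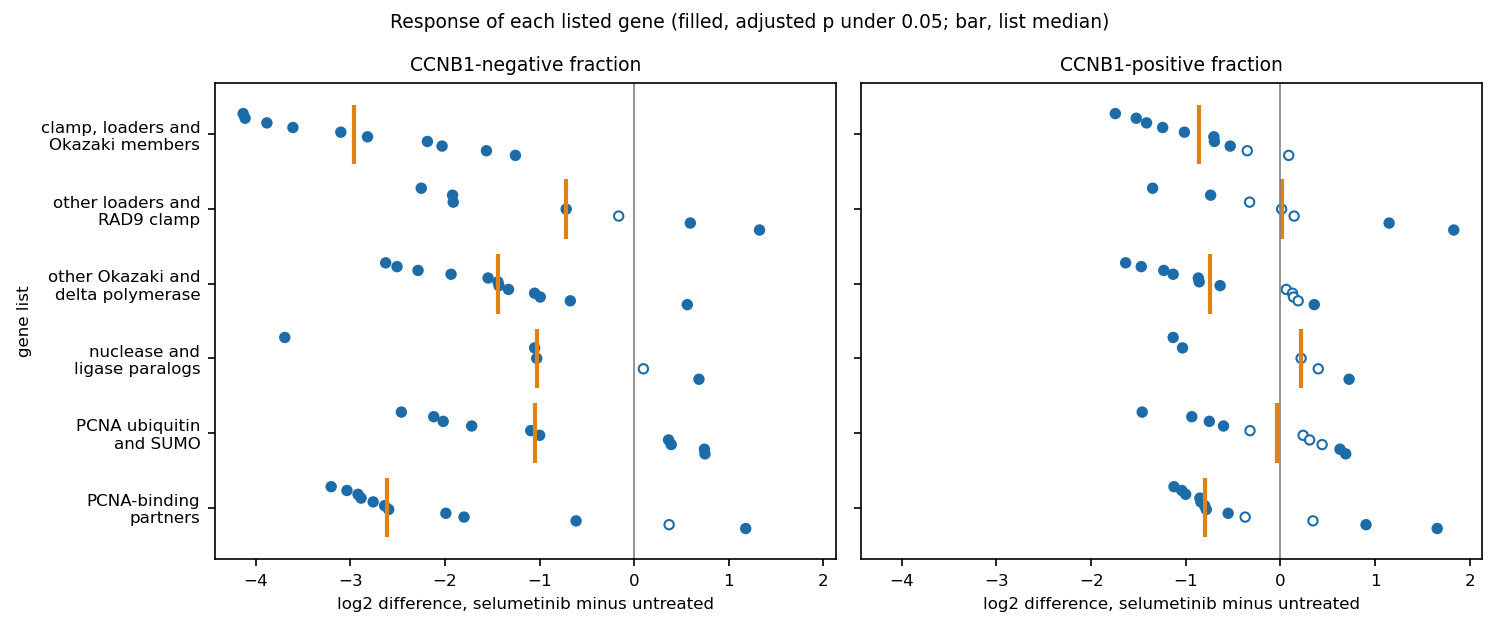
Log2 difference between selumetinib and untreated cells (x axis) for each gene of the member list and of the 5 pathway lists (y axis), in CCNB1-negative (left) and CCNB1-positive (right) cells, filled where the adjusted p was under 0.05, with the list median as a bar. The member median is -2.96 on the left and -0.86 on the right, and that of the PCNA-binding proteins is -2.62 and -0.79.

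The genes whose deposited log2 values followed PCNA most closely over the 8 libraries were the helicase subunit MCM3 (Pearson r = 0.998), the transporter-like MFSD14B (0.998), SKP2 of the ubiquitin ligase that targets CDK inhibitors (0.997), the dUTPase DUT (0.996) and ARPP19 (0.996), among 14218 genes. These values describe 8 libraries that share 4 groups. Of the members, RFC2 was the closest to PCNA (0.992, rank 13), followed by DSCC1 and FEN1 (0.977 each) and RFC4 (0.975). LIG1 (0.909, rank 2780) and CHTF18 (0.556, rank 5512) were the farthest.

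Overlapping annotation touched other members too, and the strand setting of the counting was not given in the sources used here. On the opposite strand the overlaps included 352 bases of CHTF18 with RPUSD1, 444 bases of RFC5 with WSB2 and 18 bases of RFC4 with EIF4A2. On the same strand RFC3 shares 4636 bases with ENSG00000276672 (1 to 55 reads per library). DSCC1 shares 1650 bases with ENSG00000279347 on the same strand (6 to 108 reads per library). The response of RPUSD1 was -1.53 in the CCNB1-negative fraction and -1.23 in the other. That of WSB2 was -0.55 and -0.64, and that of EIF4A2 was -0.46 and -0.22. How many reads of the overlapping genes were counted for the members was not tested.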

How the data were processed

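Poly(A) RNA was sequenced from 8 libraries of sorted HT29 cells, 2 in each of 4 groups. Per the labels and methods, the authors used Trim Galore 0.5.0 to trim reads, aligned them with HISAT2 2.1.0 to GRCh38 and quantified them in SeqMonk 1.47.0. The deposited values are log2 reads per gene, scaled by the authors to the largest library, with genes without a read at 0.9 reads before scaling. Whole reads were recovered from 100% of the values, within a relative tolerance of 0.001. Replicates of a group differed by more than sampling noise (chi-square per gene 17.3 to 33.5).

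The 14219 genes whose mean reached 1 RPM were tested with limma 3.58.1 in R 4.3.3, with a trend, over all 4 groups and with Benjamini-Hochberg adjustment, two-sided at 0.05. A count model was run only as limma-voom on the recovered reads. The script was tested on simulated data. An exact permutation test of 2 against 2 libraries cannot go below p = 0.333 and was not used. Lengths and coordinates came from GENCODE release 44, in which 99.3% of the identifiers were found. Intervals are 95% intervals of the model.

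All 10 members were named, and in each other list the called genes with the largest rise and fall, genes whose role needed a value, and the 5 genes most like PCNA. The members and lists were chosen with earlier results of these data known. Alternatives were quantile normalization, scaling to nuclear genes without MALAT1, other filters, a pseudocount, stricter thresholds, replicate blocks, fits of only the groups compared, limma-voom and leaving out each library.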

Additional observations from a re-analysis of the deposited data

Results flagged for a closer look

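For 9 members the response to selumetinib was not equal in the 2 fractions, by the test of the difference of the responses itself (limma, adjusted p under 0.05). Among all genes tested 4.99% passed as positive and 0.345% as negative. On the log2 scale the difference of the responses was 2.64 for FEN1, 2.61 for DSCC1, 2.59 for RFC3, 2.37 for PCNA, 2.12 for RFC4, 1.69 for RFC2, 1.65 for CHTF18, 1.50 for RFC5 and 1.48 for LIG1. The larger fall was in CCNB1-negative cells, and CHTF18 did not fall in CCNB1-positive cells (0.09). The rule on samples far from the others was not applied, since each group held 2 libraries. FADS2, whose span holds almost all of FEN1, had nearly the same values as FEN1, with a difference of responses of 2.55 (adjusted p = 4.5e-06).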

How the results depend on the processing

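Of the counts and medians over the members, 147 values under alternatives stayed within the limits set for them and 27 moved, and no member count or median changed direction. A median counted as moved if it shifted by at least its spread between replicates (0.028 to 0.104). A count moved if it changed beyond a set ratio. Many values could not move, for single members too. Other filters, blocks, fits of only the groups compared and leaving out a library outside the comparison keep a log2 difference as it is. For single members, 837 differences kept direction and call, 15 lost the call, 15 gained it and 3 changed sign without a call: CHTF18 in CCNB1-positive cells (-0.15 without untreated CCNB1-positive replicate 2, with -0.15 to 0.33 over the libraries left out) and LIG1 between untreated fractions (0.12 without untreated CCNB1-negative replicate 1, 0.01 without untreated CCNB1-positive replicate 2, with -0.28 to 0.12 over all). The median response of the members in CCNB1-negative cells was -3.08 with quantile normalization, -2.64 with scaling to nuclear genes without MALAT1, -2.85 with a pseudocount of 1 RPM and -2.81 with limma-voom. In CCNB1-positive cells it was -0.61 with the nuclear scaling and -0.75 with limma-voom, and -0.93 to -0.85 when libraries were left out, and 5 members passed a 2-fold requirement. Between untreated fractions 1 member passed the 2-fold requirement, and leaving out libraries gave counts of 1 to 4 and medians of -0.62 to -0.40. In selumetinib cells the median difference between fractions was 1.40 (quantile), 1.28 (nuclear), 1.30 (pseudocount), 1.31 (limma-voom) and 1.33 to 1.42 with libraries left out. The median difference of the responses was 1.99 (quantile), 1.82 (pseudocount) and 1.84 to 1.996 with libraries left out. Nuclear scaling moved the median of all genes from 0.05 to 0.36 in CCNB1-negative and from 0.17 to 0.42 in CCNB1-positive responses, and the share of calls that were higher from 51.6% to 63.1% and from 58.1% to 71.9%. Quantile normalization moved that share from 58.1% to 47.1% for the CCNB1-positive response, from 47.5% to 65.7% and from 63.6% to 46.5% for the untreated and selumetinib fractions, and from 93.5% to 69.2% for the difference of the responses, and limma-voom gave 49.7% for the selumetinib fractions.

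Replicate numbers were not taken as pairs, because the labels do not say what they mark. Deviations of same-numbered libraries correlated at 0.352 between the untreated fractions and 0.428 between the selumetinib fractions, and at -0.088 to 0.082 otherwise. With a replicate block, 10, 9, 4, 10 and 10 members passed for the CCNB1-negative response, the CCNB1-positive response, the untreated fractions, the selumetinib fractions and the difference of the responses. With a block for each treatment and number, 8, 10 and 10 passed for the last 3 of these. Calls among all 14219 genes tested rose with that block too. Between the untreated fractions 675 genes were higher and 1248 lower, beside 194 and 214 in the main fit. Between the selumetinib fractions these were 3845 and 2826, beside 1958 and 1119. For the difference of the responses, 2739 were positive and 1111 negative, beside 709 and 49. The 4 members added between the untreated fractions were RFC1, RFC2 and RFC5, lower (adjusted p = 0.0028, 0.0036 and 0.01), and CHTF18, higher (adjusted p = 0.0015). The difference of responses of RFC1 passed with the replicate block (adjusted p = 0.011) and with the block for each treatment and number (adjusted p = 0.00011). With the replicate block 814 of all genes tested passed as positive and 69 as negative for the difference of the responses.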
